A study of Mus musculus with 9 samples.

Results

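This report describes 10 genes of glucose uptake and glycolysis, Slc2a1, Hk1, Pfkfb3, Aldoa, Tpi1, Gapdh, Pgk1, Eno1, Pkm and Ldha, in ribosome-bound RNA from mouse white adipose tissue. They were chosen by symbol, and all 10 were present among the 11802 listed genes. In RiboTag mice Cre turns on a form of the ribosomal protein Rpl22 that bears an HA tag, and pulling on the tag recovers ribosomes, with their RNA, from the cells in which Cre was active. The group called WT held 4 libraries from mice of strain Pdgfb-iCreERT2:Rpl22HA, in which the labels give endothelial Mfn2 as present. The group called KO held 5 libraries from Pdgfb-iCreERT2:Mfn2ideltaEC:Rpl22HA mice, in which they give it as absent. Both groups therefore carried the same inducible endothelial Cre driver and the same tagged Rpl22, and they differed in Mfn2, which encodes an outer-membrane protein needed for mitochondrial fusion. Each capture used 50 to 100 mg of tissue and 2 to 5 ng of RNA. The sources used here give no age, sex or induction scheme. The replicates are labelled biological without the animals being named, so the p-values here reflect library-to-library spread, which may be partly technical.

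Glycolysis splits glucose into pyruvate in the cytosol and yields ATP without oxygen. Glucose enters through transporters such as the product of Slc2a1 and is trapped by hexokinase. It then passes through phosphofructokinase, aldolase and the enzymes of the lower pathway to pyruvate, which lactate dehydrogenase can convert to lactate. Endothelial cells are known to draw much of their ATP from this route, and Pfkfb3, whose product makes the activator of phosphofructokinase, is a known regulator of vessel sprouting. Several of these genes are textbook targets of the hypoxia-inducible factors, which bind DNA at the core letters ACGTG or GCGTG.

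Because several members are known targets of these factors, promoter windows were searched for ACGTG on both strands, with the E-box CACGTG counted within it. Each window held the 250 bases upstream of a RefSeq transcript start (GRCm38.p6). The other form, GCGTG, was not searched. Windows without a match can hold it, as windows of Hk1, Gapdh and Eno1 do. Of the 10 members, 6 held the letters in at least 1 window (Slc2a1, Pfkfb3, Aldoa, Pgk1, Pkm and Ldha), in 8 of 18 windows, of which 2 overlapping Aldoa windows hold the same match. Over all 32851 RefSeq windows the share was 16.6%, and over the 10294 windows of listed genes it was 21.6%. Ldha had 3 separate matches in 1 window, 145, 48 and 34 bases upstream of the start, and 0.427% of the windows of listed genes had 3 or more. Pgk1 had matches 150 and 131 bases upstream. The stretches around the matches that lie outside annotated exons follow, written 5′ to 3′ on the strand of the gene, with the matching letters in capitals. They show how the matches are arranged in the 4 members concerned.
Ldha (chr7:46845639-46845794, plus strand): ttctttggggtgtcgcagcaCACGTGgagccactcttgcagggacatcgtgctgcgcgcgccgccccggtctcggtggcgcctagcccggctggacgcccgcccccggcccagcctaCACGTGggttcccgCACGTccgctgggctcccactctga
Pgk1 (chrX:106186930-106186993, plus strand): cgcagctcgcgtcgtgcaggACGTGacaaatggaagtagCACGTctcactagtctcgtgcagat
Pfkfb3 (chr2:11502118-11502163, minus strand): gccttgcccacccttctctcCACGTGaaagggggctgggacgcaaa
Aldoa (chr7:126799356-126799400, minus strand): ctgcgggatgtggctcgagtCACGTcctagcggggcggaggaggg
A match describes the letters only, and binding was not measured in these libraries.

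The libraries held 1034753 to 3829356 listed reads. Mfn2 itself averaged 36.1 ± 15.0 CPM (reads scaled to a common library total; SD, n = 4) under the label WT and 66.7 ± 37.0 CPM (SD, n = 5) under the label KO, and its relative log2 fold change was −0.16 (limma adjusted p = 0.898). The targeted gene thus gave no check of the labels, on which all directions given here depend. All 14 endothelial markers examined were measured, with a summed level of 1020 to 3548 CPM in WT and 3053 to 7016 CPM in KO. In CPM 12 of the 14 were called higher, against 32.0% of all genes, and none was called on the relative scale, against 0.110%. Their relative median was 0.38, against 0.12 for all genes. The relative medians were −0.31 for adipocyte, −0.34 for fibroblast and −0.30 for macrophage markers, with no call on that scale. Their part in the members' values was not tested. Adipocyte markers were also abundant, at 3374 to 7025 CPM in WT and 8836 to 19956 CPM in KO. The highest sum was that of KO replicate 5, and the other KO libraries held 8836 to 15665 CPM. KO replicate 5 was the highest KO library for 2 of the 12 adipocyte markers. KO replicate 5 stood apart in skeletal muscle markers, whose 14 measured genes summed to 10493 CPM there, 573 to 1064 CPM in the other KO libraries and 115 to 278 CPM in WT. The mitochondrial ribosomal RNAs took 13.9% to 64.8% of the deposited CPM total of WT libraries and 12.8% to 25.2% of that of KO libraries, and WT replicate 4 was the lowest of the WT libraries. In bulk RNA of this kind, fewer cells of a type and less RNA per cell cannot be told apart.

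All 10 genes had a higher mean CPM in the libraries labelled KO, and 5 of them, Hk1, Aldoa, Pgk1, Pkm and Ldha, rose in the deposited CPM (limma on log2(CPM + 1), adjusted p under 0.05 over all genes). That count stands against 32.0% of all genes called higher on the same scale. The median log2 fold change of the 10 genes was 1.08, and that of all 11802 genes was 1.10. In 3 members, Hk1, Aldoa and Eno1, every KO library was above every WT library, as in 18.7% of all genes. Each library's median was then subtracted, which gives a level relative to the other genes of that library. On this relative scale none of the 10 genes was called by limma, where 0.110% of all genes were called, and none had an unadjusted p under 0.05, where 11.7% of all genes had one. Nor was any called by edgeR (0.0424% of all genes) or DESeq2 (1.74% of the genes given an adjusted p) on the recovered reads, and neither tool gave a member an unadjusted p under 0.05. DESeq2 gave Gapdh no adjusted p. The median relative log2 fold change was 0.11 for the members and 0.12 for all genes, with 8 members above 0 and 2 below. No member had groups that did not overlap on the relative scale, where KO lay wholly above WT in 2.07% of all genes and wholly below it in 1.74%.

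**Figure D1:**
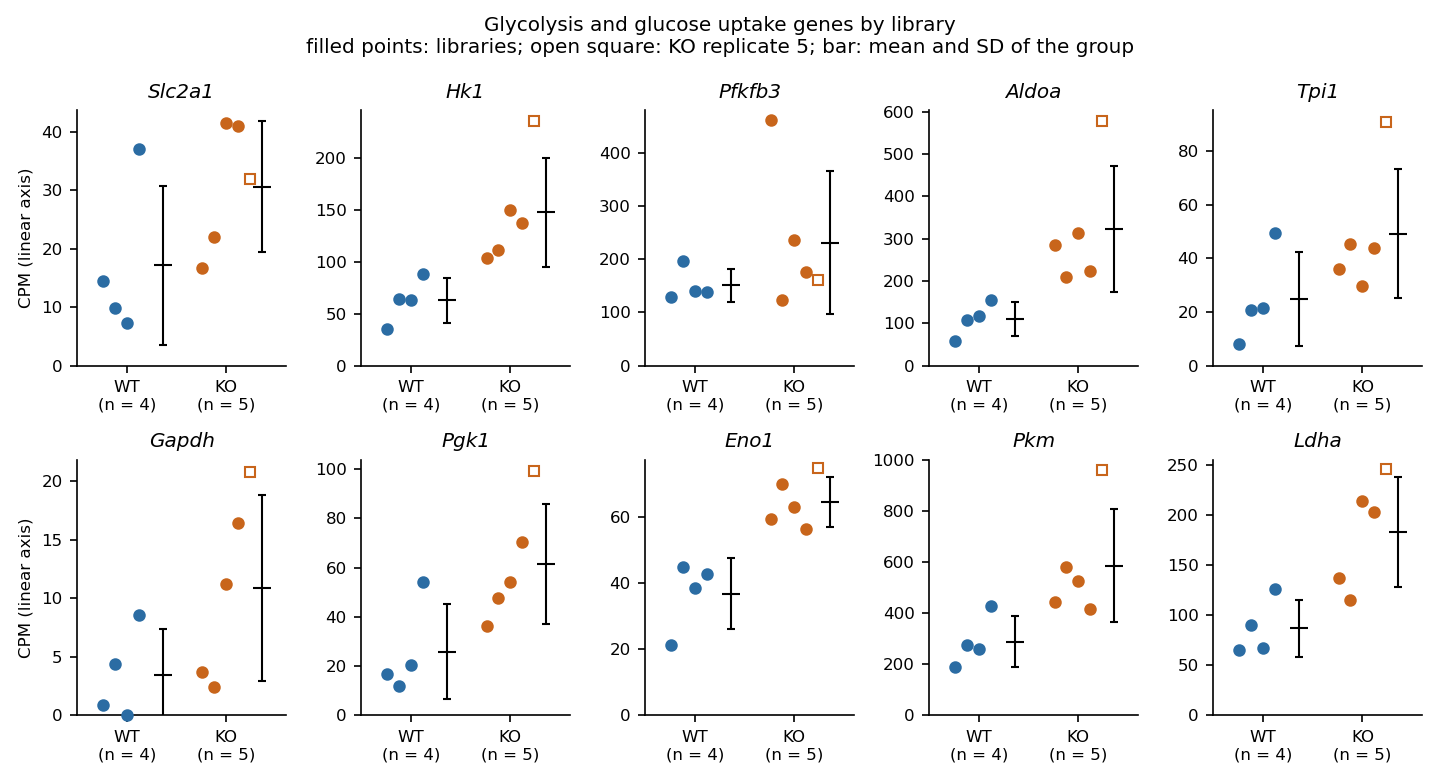
CPM of each of the 10 genes (linear axes from 0) in 4 WT and 5 KO libraries; points are libraries, the open square is KO replicate 5, and bars give the mean and SD, cut off at 0 for Gapdh. KO replicate 5 is the highest KO library in 8 of the 10 panels, all but Slc2a1 and Pfkfb3.

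Slc2a1 (ENSMUSG00000028645; GRCm38 chromosome 4, 119108711 to 119137983, plus strand) encodes GLUT1, the basal glucose transporter of endothelium. Its levels were 14.4, 9.89, 7.35 and 37.1 CPM in WT replicates 1 to 4 and 16.7, 22.0, 41.5, 41.0 and 31.9 CPM in KO replicates 1 to 5. WT replicate 4 lay among the KO libraries, and the groups overlapped. The log2 fold change was 0.98 in CPM (SE 0.509, limma adjusted p = 0.114) and 0.00018 on the relative scale (SE 0.419, adjusted p = 1.000, 95% interval −0.87 to 0.87).

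Hk1 (ENSMUSG00000037012; GRCm38 chromosome 10, 62268855 to 62379908, minus strand) encodes the hexokinase that phosphorylates glucose on entry and can sit on the outer mitochondrial membrane. It was at 35.1, 64.1, 63.6 and 88.4 CPM in WT and at 104, 111, 150, 137 and 236 CPM in KO. Every KO library lay above every WT library, with KO replicate 5 the highest. Hk1 rose in CPM by 1.23 on the log2 scale (SE 0.406, limma adjusted p = 0.0243). On the relative scale the value was 0.25 (SE 0.274, limma adjusted p = 0.765).

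Pfkfb3 (ENSMUSG00000026773; GRCm38 chromosome 2, 11471433 to 11554077, minus strand) was the member whose relative estimate lay farthest below 0. Its levels were 128, 197, 141 and 138 CPM in WT and 461, 123, 235, 176 and 160 CPM in KO. KO replicate 1 alone was far above the rest, and KO replicate 2 was below every WT library. The log2 fold change was 0.47 in CPM (SE 0.405, limma adjusted p = 0.324) and −0.51 on the relative scale (SE 0.348, adjusted p = 0.597, 95% interval −1.23 to 0.22). Without KO replicate 1 these values were 0.18 (adjusted p = 0.716) and −0.80 (adjusted p = 0.188).

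Aldoa (ENSMUSG00000030695; GRCm38 chromosome 7, 126795234 to 126800751, minus strand) encodes the aldolase that splits the six-carbon sugar bisphosphate, and it had the largest fold change of the 5 members called. It stood at 59.4, 107, 118 and 156 CPM in WT and at 286, 209, 314, 224 and 577 CPM in KO. The groups did not overlap, and KO replicate 5 was far above the other KO libraries. Aldoa rose in CPM by 1.52 on the log2 scale (SE 0.405, limma adjusted p = 0.0100). Its relative log2 fold change of 0.54 (SE 0.280, 95% interval −0.042 to 1.13) had the smallest p of the 10 on that scale (limma adjusted p = 0.469, and 0.0671 before adjustment).

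The next 2 enzymes, triosephosphate isomerase and the dehydrogenase that oxidises its product, were not called. Tpi1 (ENSMUSG00000023456; GRCm38 chromosome 6, 124810586 to 124814296, minus strand) was at 8.10, 20.6, 21.5 and 49.4 CPM in WT and 36.1, 45.4, 29.9, 43.9 and 91.1 CPM in KO (log2 fold change 1.10, limma adjusted p = 0.0679; relative 0.12, adjusted p = 0.926). WT replicate 4 lay above every KO library but replicate 5. Gapdh (ENSMUSG00000057666; GRCm38 chromosome 6, 125161715 to 125166467, minus strand), often used as a reference gene, was at 0.900, 4.35, 0 and 8.55 CPM in WT and 3.64, 2.39, 11.2, 16.4 and 20.8 CPM in KO. It ranked 9058 of 11802 genes by mean CPM, with 0 to 81 reads per library, and the 0 in WT replicate 3 allows up to 1.58 CPM (3 reads, counting error only). The log2 fold change of Gapdh was 1.58 (SE 0.705, limma adjusted p = 0.0723) and its relative value 0.60, with the widest 95% interval of the 10 (−0.78 to 1.99).

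Pgk1 (ENSMUSG00000062070; GRCm38 chromosome X, 106187100 to 106203699, plus strand) encodes phosphoglycerate kinase, which makes the first ATP of the pathway. It was at 16.6, 11.9, 20.5 and 54.2 CPM in WT and 36.4, 47.8, 54.1, 70.3 and 99.3 CPM in KO. WT replicate 4 overlapped the KO range, and the other WT libraries lay below it. Pgk1 rose in CPM by 1.37 on the log2 scale (SE 0.464, limma adjusted p = 0.0260), with a relative log2 fold change of 0.40 (SE 0.360, adjusted p = 0.711).

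Eno1 (ENSMUSG00000063524; GRCm38 chromosome 4, 150236721 to 150248879, plus strand), which encodes enolase, had KO levels that varied less than those of the other members. Its levels were 21.2, 44.7, 38.3 and 42.8 CPM in WT and 59.2, 69.8, 62.8, 56.2 and 74.6 CPM in KO. Although the groups did not overlap, Eno1 was not called (log2 fold change 0.84, SE 0.420, limma adjusted p = 0.100), and its relative value was −0.13 (SE 0.297, adjusted p = 0.898).

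Pkm (ENSMUSG00000032294; GRCm38 chromosome 9, 59656368 to 59679375, plus strand) encodes both muscle-type pyruvate kinases by alternative splicing, which a table per gene cannot separate. It was at 188, 276, 257 and 427 CPM in WT and 442, 582, 525, 416 and 962 CPM in KO. WT replicate 4 lay just above KO replicate 4. Pkm rose in CPM by 1.02 on the log2 scale (SE 0.403, limma adjusted p = 0.0476), and its relative log2 fold change was 0.043 (SE 0.278, adjusted p = 0.967).

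Ldha (ENSMUSG00000063229; GRCm38 chromosome 7, 46841475 to 46855627, plus strand) encodes the lactate dehydrogenase subunit that favours lactate formation. Its levels were 64.8, 89.8, 66.7 and 126 CPM in WT and 137, 115, 214, 203 and 246 CPM in KO. The groups overlapped through WT replicate 4 and KO replicate 2. Ldha rose in CPM by 1.06 on the log2 scale (SE 0.398, limma adjusted p = 0.0392), with a relative value of 0.085 (SE 0.266, adjusted p = 0.929).

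**Figure D2:**
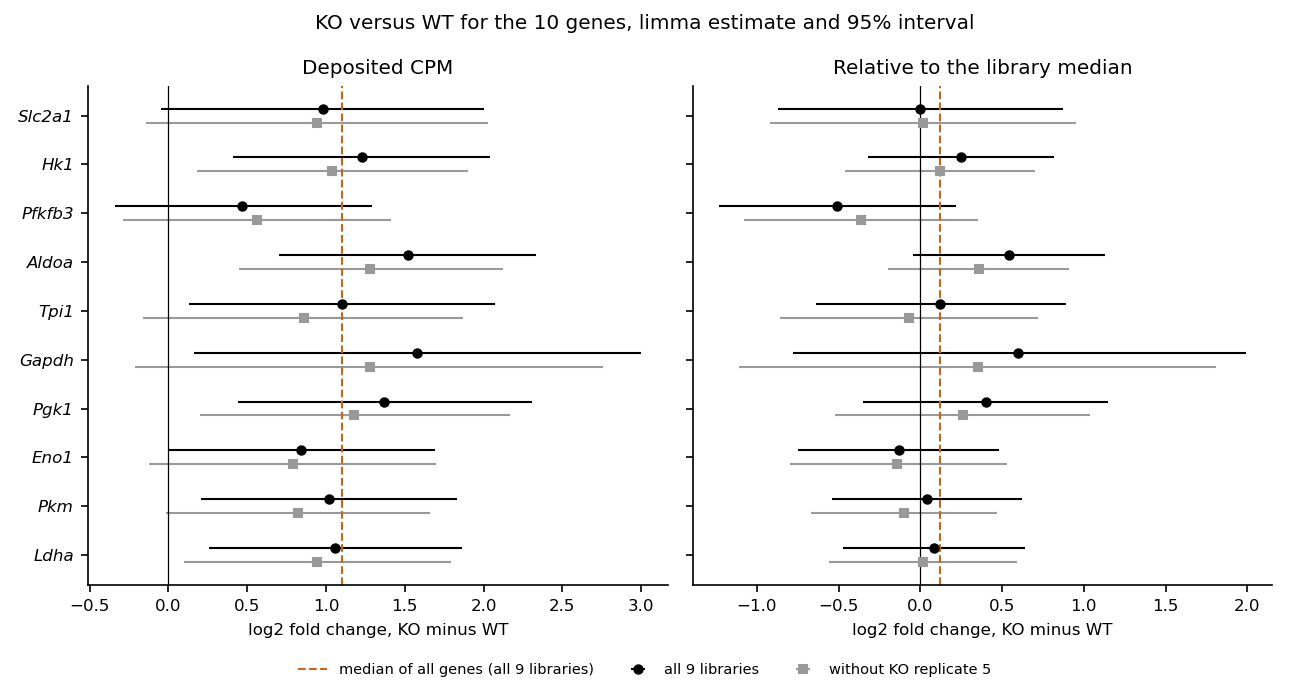
Limma log2 fold change of each gene, KO minus WT, with 95% intervals, in the deposited CPM (left) and relative to the library median (right); black is all 9 libraries, grey is without KO replicate 5, and the dashed line is the median of all genes. The relative intervals of all 10 genes include 0, with and without KO replicate 5.

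The CPM calls depended on scale and on single libraries, for all genes (3780 called higher with all 9 libraries) as for the members. When the values were rescaled without the mitochondrial rRNAs, or when the share of these rRNAs was a covariate, 0 of the 10 members were called. Of all genes 22 and 16 were called higher in these fits, in that order. Without WT replicate 4 limma called 9 members, all but Pfkfb3, and it called 5916 of all 11802 genes higher. Without KO replicate 3, without KO replicate 4, without WT replicate 1 or without WT replicate 3 only Aldoa was called. Of all genes 1689, 2091, 1094 and 1799 were called higher in these fits, in that order. Without WT replicate 2 Hk1 and Aldoa were called, and 2869 of all genes were called higher. Aldoa was called in the deposited CPM in each of the 9 fits that left out 1 library, with log2 fold changes of 1.25 to 1.71.

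KO replicate 5, the library rich in muscle markers, was the highest KO library for 8 of the 10 members in CPM, against 34.5% of all genes. On the relative scale it was the highest for 7 of 10, all but Slc2a1, Pfkfb3 and Eno1, against 25.4% of all genes. Its relative level lay a median of 0.62 log2 units above the median of the other KO libraries for the members, and 0.029 for all genes. The difference was 1.35 for Gapdh, 0.99 for Tpi1, 0.88 for Aldoa, 0.81 for Pkm, 0.63 for Pgk1, 0.62 for Hk1, 0.37 for Ldha and 0.10 for Eno1. Slc2a1 and Pfkfb3 went the other way, at −0.23 and −0.49. Thus both the transporter and the regulator were lower in KO replicate 5, relative to its median, than in the middle of the other KO libraries, while the 8 enzymes of the pathway itself were higher. Without KO replicate 5 limma called only Aldoa of the 10 in CPM (log2 fold change 1.28, adjusted p = 0.0364), against 15.5% of all genes called higher. The others then had adjusted p of 0.0726 for Hk1, 0.0737 for Pgk1, 0.0895 for Ldha and 0.125 for Pkm. The relative log2 fold change of Aldoa was 0.36 without that library (limma adjusted p = 0.775).

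All 14 measured muscle markers were called higher in the deposited CPM (against the 32.0% of all genes) and none on the relative scale. All 14 peaked in KO replicate 5, and none was at 0 in every library of a group. Without that library 11 of the 14 were called in CPM, against 15.5% of all genes. With the mean of these markers as a covariate none of the 10 members was called and 2 of all genes were. The summed markers did not overlap between the groups (115 to 278 CPM in WT, 573 to 10493 CPM in KO). That fit therefore cannot separate muscle markers from the group, and its loss of calls says nothing about either. Of 8 measured genes listed as muscle-type isoenzymes and partners, Pygm, Phka1 and Pfkm were called higher in CPM, a share near the 32.0% of all genes. The list is not specific to muscle, as it includes Slc2a4, which is also among the adipocyte markers used here. Without KO replicate 5 only Pygm kept its call (limma adjusted p = 0.0472), with 0.0540 for Phka1 and 0.141 for Pfkm. Pygm, the muscle glycogen phosphorylase, was at 0.950 to 3.16 CPM in WT, 7.03 to 16.1 CPM in KO replicates 1 to 4 and 205 CPM in KO replicate 5. Eno3, the muscle enolase, was at 66.9 CPM in KO replicate 5 and at most 17.3 CPM elsewhere. Pfkm, the muscle phosphofructokinase, reached 97.5 CPM in KO replicate 5 and 70.1 CPM in KO replicate 1, and Phka1, a phosphorylase kinase subunit, reached 44.5 and 18.8 CPM there. Hk2, Slc2a4, Gpd1 and Phkg1 were not called (limma adjusted p = 0.737, 0.929, 0.533 and 0.0846). Of these, Hk2, Slc2a4 and Gpd1 peaked in KO replicate 1, at 201, 23.1 and 178 CPM, so they did not follow the muscle markers across the KO libraries. The part of muscle RNA in the members' levels was not tested.

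**Figure D3:**
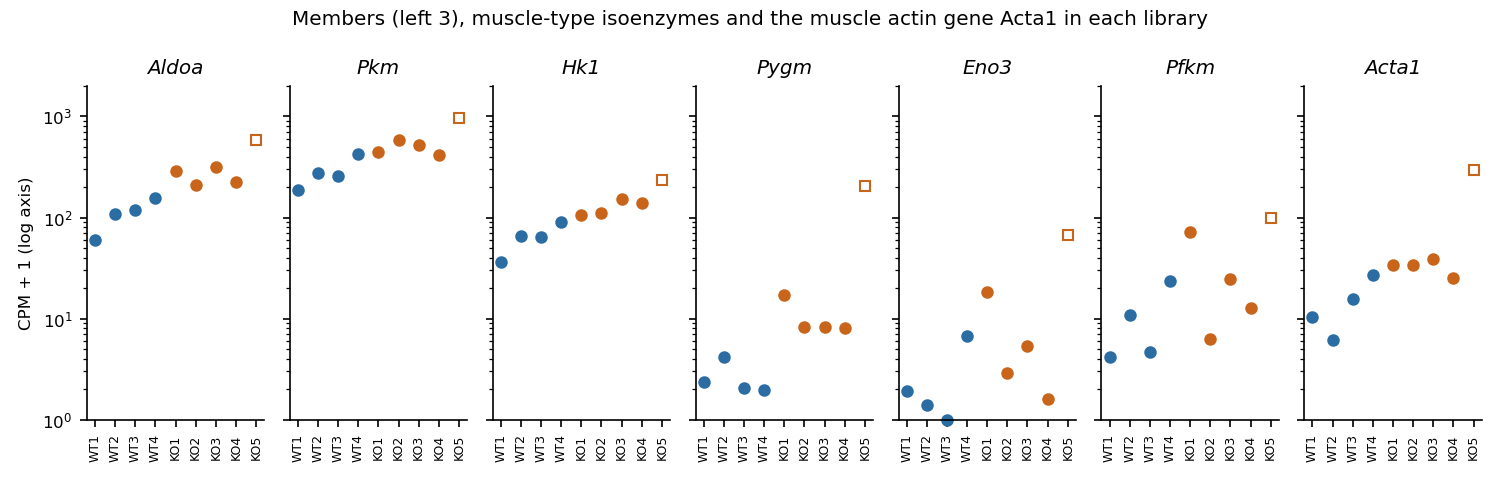
CPM + 1 (log axis) in each of the 9 libraries for Aldoa, Pkm and Hk1, for the muscle-type genes Pygm, Eno3 and Pfkm, and for the muscle actin gene Acta1; the open square is KO replicate 5. Pygm reaches 205 CPM and Acta1 292 CPM in KO replicate 5, above all other libraries, while Aldoa, Pkm and Hk1 are abundant in every library.

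Ratios of 2 genes within a library depend little on library scaling where both genes are abundant, and 7 such pairs were measured. The ratios were taken of CPM + 1, so those with Gapdh, Eno3 or Slc2a3, which had values of 0, moved with the pseudocount: at 0.5 the differences were −0.49 for Pgk1/Gapdh, −1.43 for Eno1/Eno3 and −0.14 for Slc2a1/Slc2a3. None passed an exact permutation test (two-sided, 126 arrangements of 4 and 5 libraries). The smallest p this design allows is 0.0159, and a single pair at that exact permutation p would have an adjusted p of 0.111. Hk1 was set against Hk2, the insulin-responsive hexokinase. Their log2 ratio was 0.34, −0.60, −0.64 and 0.15 in WT and −0.95, 0.69, 1.60, 1.23 and 1.75 in KO. Thus 4 of the 5 KO libraries lay above all WT libraries and KO replicate 1 lay below them (difference 1.05, exact permutation p = 0.127, adjusted 0.667). Slc2a1 against Slc2a4, the insulin-responsive transporter, gave a difference of 1.04 (exact permutation p = 0.190, adjusted 0.667). Ldha against Ldhb, the subunit that favours pyruvate, had a mean log2 ratio of 2.17 ± 0.942 (SD, n = 4) for WT, against 2.79 ± 0.617 for KO (SD, n = 5), with an exact permutation p of 0.302. Eno1 against Eno3 was at 4.14 ± 1.23 and 3.05 ± 2.08, with 0.16 in KO replicate 5 (exact permutation p = 0.413). Pkm against Ldha, the last 2 steps to lactate, was at 1.70 ± 0.177 and 1.66 ± 0.517, a difference of −0.042 (exact permutation p = 0.905). For Slc2a1 against Slc2a3 the difference was 0.046 (p = 0.937), and for Pgk1 against Gapdh it was −0.21 (p = 0.778, both exact permutation tests).

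**Figure D4:**
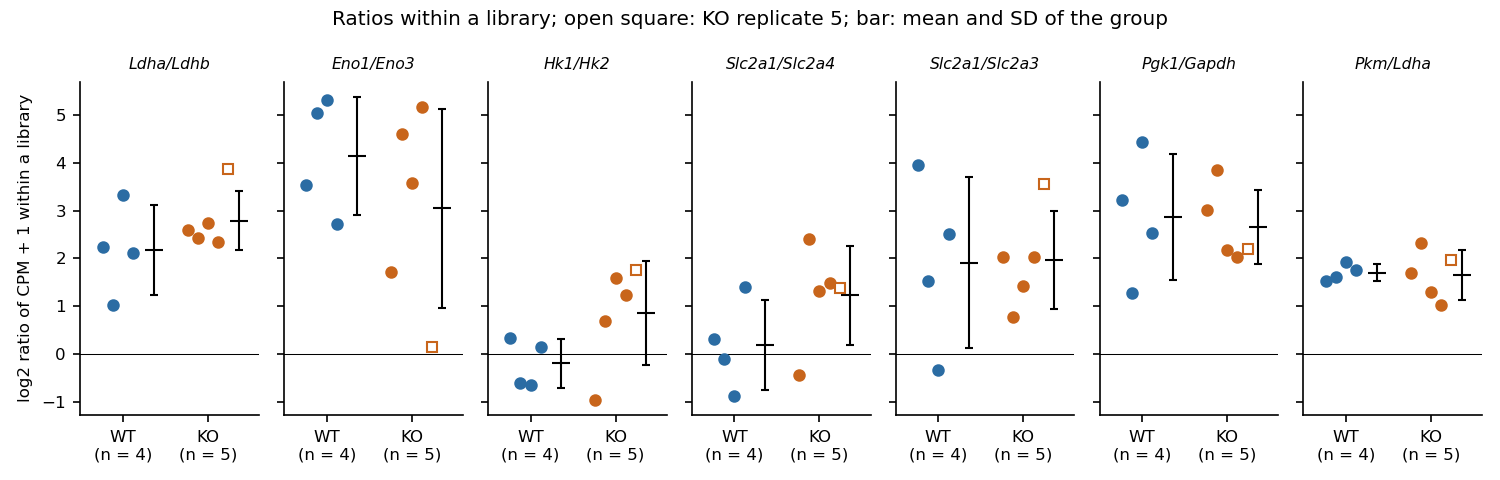
Log2 ratio of CPM + 1 between 2 genes within each library, for 7 pairs; points are libraries, the open square is KO replicate 5, and bars give the mean and SD of 4 WT and 5 KO libraries. The groups overlap in every panel, and KO replicate 5 has the highest Ldha/Ldhb ratio (3.86) and the lowest Eno1/Eno3 ratio (0.16).

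Together the 10 genes took 0.212% ± 0.0133 (SD, n = 4) of the CPM of nuclear protein-coding genes in WT and 0.257% ± 0.0440 (SD, n = 5) in KO, where KO replicate 5 was the highest at 0.331%. The remaining KO libraries ran from 0.214% to 0.251% and overlapped the WT range of 0.201% to 0.227%. Within the summed CPM of the 10 genes, Pkm took 35.3% ± 1.84 in WT and 34.5% ± 6.54 in KO. Pfkfb3 took 19.8% ± 5.49 and 14.4% ± 8.82, and Aldoa took 13.5% ± 2.09 and 18.5% ± 2.94.

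Levels per kilobase of annotated exon ranked the members from Pkm (mean over 9 libraries 90.5 CPM per kb) through Aldoa (78.3), Ldha (42.4), Pfkfb3 (25.8), Pgk1 (20.4), Tpi1 (14.0), Hk1 (12.9), Eno1 (9.70) and Slc2a1 (7.03) to Gapdh (1.83). Aldoa was above Ldha and Slc2a1 above Gapdh in all 9 libraries. Neighbours in this order changed places between libraries elsewhere. Pfkfb3 was above Pgk1, Tpi1 above Hk1 and Eno1 above Slc2a1 in only 5 of 9, and Pkm was above Aldoa in 6.

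Several members share sequence with copies elsewhere in the genome, and the sources used here do not say how reads that match more than 1 place were counted. Of the distinct 50-base stretches of Pgk1 transcripts, 53.9% also occur in transcripts of other genes, and the share was 26.0% for Eno1, 25.8% for Pkm and 25.1% for Gapdh. It was 9.26% for Ldha, 6.43% for Aldoa, 4.18% for Tpi1, and 1.54%, 1.22% and 0.376% for Slc2a1, Hk1 and Pfkfb3. Gapdh had 116 such genes holding at least 1% of its stretches, and 10 of them were listed. Those 10 summed to 32.9 ± 13.9 CPM (SD, n = 4) for WT, against 89.0 ± 43.0 CPM for KO (SD, n = 5), above the 3.45 and 10.9 CPM of Gapdh itself. Much of that sum was Peli2, which shares only 1.83% of the stretches and averaged 15.9 CPM in WT and 32.4 CPM in KO. The other listed genes share 19.6% to 24.6%, and each averaged 1.16 to 2.77 CPM in WT and 4.82 to 7.19 CPM in KO. Pgk1 stood at a mean of 25.8 CPM in WT and 61.6 CPM in KO, beside 22.1 and 49.2 CPM for its retrocopy Pgk1-rs7. The copy Gm5537 had the same CPM as Pgk1-rs7 in every library but WT replicate 1 (15.3 against 15.8 CPM). Whether the same reads were counted for both was not tested. Eno1b, a copy of Eno1, was at 31.1 and 51.3 CPM beside 36.7 and 64.5 CPM for Eno1. For Pkm, the copy Gm6560 was at 132 and 229 CPM. Aldoart1, a copy of Aldoa, rose in CPM from 26.5 ± 7.31 to 101 ± 52.8 (log2 fold change 1.80, limma adjusted p = 0.00675; relative 0.83, adjusted p = 0.332) and had 190 CPM in KO replicate 5. The levels of Gapdh, Pgk1, Eno1 and Pkm are therefore uncertain, and for the copies the same holds. Aldoa shares less, but its 3 listed copies summed to 28.1 ± 7.99 CPM in WT and 112 ± 54.6 CPM in KO. Aldoa itself averaged 110 and 322 CPM, and how far its level depends on the copies was not tested. Tpi1 also overlaps exons of Spsb2 by 34 bases and Gapdh those of Iffo1 by 68 bases on the other strand, and the sources used here do not give the strand setting of the counting.

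The genes whose relative profile over the 9 libraries was most like that of a member were found by the mean absolute difference of centred log2 values, among 5229 or 5230 genes with a mean CPM of at least 20. The nearest were Oaz1, Gnai3 and Sdf4 for Hk1 (0.0789, 0.0903 and 0.116), Dnaja2, Plxnd1 and Gm15427 for Aldoa (0.116, 0.136 and 0.157), and Sdf4, Ppm1b and Hnrnpa1l2-ps2 for Pkm (0.118, 0.119 and 0.132). For Ldha they were Serbp1, Tomm70a and Mtdh (0.0942, 0.120 and 0.121), and for Eno1 they were Dtnbp1, Top1 and Fth1 (0.0719, 0.0899 and 0.0944). Pgk1 was nearest to its own copies Gm5537 and Pgk1-rs7 (0.102 and 0.107), then to Gm17018 (0.132). For Slc2a1 the first was Gm6576 (0.188), for Pfkfb3 Med12 (0.182), for Tpi1 Mphosph6 (0.177) and for Gapdh Aldh3a2 (0.289). No member was among the 3 nearest genes of another. The nearest fellow member ranked 34 for Aldoa (Hk1), 36 for Pkm (Hk1), 63 for Tpi1 (Hk1) and 87 for Hk1 (Pkm), and 929 for Gapdh (Slc2a1).

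For 14 measured genes grouped as other glycolytic enzymes the relative median was 0.11. In CPM 5 of the 14 were called higher and none lower, near the 32.0% of all genes. They were the phosphofructokinases Pfkl (mean 28.0 ± 12.6 CPM for WT, n = 4, against 69.3 ± 23.3 for KO, n = 5; log2 fold change 1.35, limma adjusted p = 0.0232) and Pfkm, with Bpgm, Pgam5 and Minpp1. Of these, Pgam5 encodes a mitochondrial phosphatase despite its name. Pfkm, Bpgm and Minpp1 lost their calls without KO replicate 5 (limma adjusted p = 0.141, 0.0581 and 0.0923). Of 9 glucose and lactate transport genes, 2 were called higher in CPM, a smaller share than the 32.0% of all genes, and the relative median was 0.021. Txnip, which limits glucose uptake by removing transporters from the cell surface, went from 245 ± 130 to 814 ± 227 CPM with no overlap (log2 fold change 1.84, limma adjusted p = 0.00522; relative 0.86, adjusted p = 0.229). Bsg, the chaperone of lactate transporters, was at 26.8 ± 18.6 and 71.7 ± 45.3 CPM (log2 fold change 1.45, limma adjusted p = 0.0239). It reached 149 CPM in KO replicate 5, and without that library its adjusted p was 0.0815. The list made for the Pfkfb family and Tigar gave no call in either direction among its 3 measured genes, Pfkfb1, Pfkfb4 and Fbp1. Pfkfb1 was at 20.0 ± 8.67 and 31.7 ± 33.8 CPM, and Pfkfb4 at 4.91 ± 5.52 and 6.94 ± 1.27 CPM. Fbp1, which is neither a Pfkfb gene nor Tigar, was at 0 CPM in all WT libraries and at 0 to 8.78 CPM in KO (limma adjusted p = 0.0948).

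Genes of the hypoxia factor pathway itself had a relative median of 0.61, and all 7 measured had a relative log2 fold change above 0, against a median of 0.12 and 57.9% above 0 for all genes. The endothelial markers lay on the same side, with 14 of 14 above 0 and a relative median of 0.38. Their part in these values was not tested. Of the 7, 6 were called higher in CPM (against the 32.0% of all genes) and none on the relative scale. Without KO replicate 5, 4 of the 7 were called in CPM, against 15.5% of all genes. Their relative median was then 0.42, against 0.10 for all genes. Epas1, the endothelial hypoxia factor, averaged 165 ± 63.1 CPM (SD, n = 4) for WT, against 440 ± 138 CPM for KO (SD, n = 5), and its log2 fold change was 1.43 (limma adjusted p = 0.0121). Its relative value was 0.45 (adjusted p = 0.524). The oxygen-sensing hydroxylases Egln2 and Egln1, which mark the factors for destruction, had log2 fold changes of 2.34 and 1.93 in CPM (limma adjusted p = 0.00442 and 0.00714), and the partner subunit Arnt had 1.74 (0.0139). For each of these 4 genes every KO library lay above every WT library in CPM, as in 18.7% of all genes. Each was still called without KO replicate 5. Among 11 other hypoxia-inducible genes, 5 were called higher in CPM (32.0% of all genes), and their relative median was 0.17 over the 11. Of these 1, Ddit4, was also called on the relative scale (0.110% of all genes, higher or lower). Ddit4 averaged 32.4 ± 14.6 CPM for WT and 245 ± 69.1 CPM for KO. Its relative log2 fold change was 1.99 (limma adjusted p = 0.0403, and 0.0410 without KO replicate 5). Next by p in CPM were Bnip3, Bhlhe40 and P4ha1 (limma adjusted p = 0.0169, 0.0235 and 0.0315). Without KO replicate 5, 2 of the 11 were called in CPM, near the 15.5% of all genes called higher.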

How the data were processed

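Ribosome-bound RNA was sequenced in 9 libraries. The authors deposited 1 table of CPM with 11802 genes, per the labels. Tools listed by the submitters' processing notes are R 4.0.2, edgeR 3.32.0, HISAT2 2.1.0, Trimmomatic 0.39 and FastQC 0.11.9, with the builds GRCm38 and mm10. The read counter and its strand and multi-mapping settings are not given in the sources used. Symbols came from GENCODE M21, which matched 11787 genes.

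Single genes were tested with limma 3.58.1 (trend) on log2(CPM + 1), as deposited and after subtracting each library's median, with Benjamini-Hochberg adjustment over all genes and a threshold of 0.05. Fold changes on this scale understate low genes. A mean CPM filter of 1 removed 0 genes. Whole reads were recovered from the CPM steps (at least 99.98% of values whole within 0.1 read), and on these DESeq2 1.42.0 and the quasi-likelihood test of edgeR 4.0.16 were run. Pairs were compared by exact permutation (scipy 1.17.1) of log2 ratios, adjusted over 7 pairs. Replicate numbers did not pair the libraries (correlations of deviations −0.04 to 0.04).

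The members, lists and tests were chosen with earlier results of these data known. Named genes are all 10 members and up to 4 called genes per pathway list by smallest p (2 of highest CPM where none was called). All listed muscle-type isoenzymes and up to 3 genes most like each member are also named. Copies, Acta1, Fbp1 and Minpp1 were named after their values were seen. Alternatives were pseudocounts of 0.5 and 5, filters, the replicate block, limma without trend, left-out libraries, muscle-marker and mitochondrial rRNA covariates, rescaling, quantile normalisation, edgeR and DESeq2.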

Additional observations from a re-analysis of the deposited data

Results flagged for a closer look

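KO replicate 5 held a log2 ratio of Ldha to Ldhb of 3.86, far above the other KO libraries for their spread. The summed CPM of the 14 skeletal muscle markers was 10493 in KO replicate 5, also far above the other KO libraries. Of 48 groups of 4 or 5 libraries checked for a single distant sample, 2 were flagged. Chance flags about 1 in 20 groups.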

How the results depend on the processing

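The number of members called higher in the deposited CPM was 5. It fell to 1 with the replicate number as a block (replicate block), where KO replicate 5 has no partner and drops out. Of all genes 1932 were then called higher, against 3780 in the main fit. In limma without trend 1 member was called, and 2901 of all genes were called higher. The member count was 0 with the muscle marker covariate, 0 with the mitochondrial rRNA covariate and 0 after rescaling without the mitochondrial rRNAs. Of all genes 2, 16 and 22 were called higher in these fits, in that order. The summed muscle markers did not overlap between the groups, so the fit with the muscle marker covariate could not separate them from the group. Leaving out 1 library at a time gave 1 to 9 members, the 9 without WT replicate 4, and 1094 to 5916 of all genes called higher. With both WT replicate 4 and KO replicate 5 left out 7 members were called, and 5102 of all genes were called higher. On the relative scale 0 members were called in every alternative run. Of 190 alternatives for single members in CPM, 48 lost a call, 7 gained one and 2 changed sign, and of 220 on the relative scale 31 changed sign, none of them a called value. Sign changes in CPM were −0.12 for Pfkfb3 after rescaling and −0.093 for Tpi1 with the mitochondrial rRNA covariate. On the relative scale that covariate gave −0.24 for Slc2a1, 0.060 for Pfkfb3, −0.46 for Tpi1, −0.30 for Gapdh and 0.11 for Eno1. The muscle covariate gave −0.033 for Hk1, −0.23 for Tpi1, −0.34 for Pkm and −0.030 for Ldha. The replicate block gave −0.070 for Tpi1 and −0.10 for Pkm, and with WT replicate 4 and KO replicate 5 both left out the values were −0.10 for Pkm and −0.00091 for Ldha. Slc2a1 was at −0.0062 with a pseudocount of 0.5, −0.0089 after rescaling, −0.14 in edgeR and −0.14 in DESeq2. Pkm was at −0.0083 after rescaling, −0.017 in edgeR and −0.014 in DESeq2, Ldha at −0.011 in edgeR and −0.0046 in DESeq2, and Eno1 at 0.010 with a pseudocount of 5. Leaving out 1 library at a time gave −0.26 to 0.23 for Slc2a1, −0.10 to 0.32 for Tpi1 and −0.10 to 0.16 for Pkm. It gave ratio differences of −0.70 to 0.72 for Slc2a1/Slc2a3, −0.74 to 0.32 for Pgk1/Gapdh and −0.21 to 0.12 for Pkm/Ldha, and a pseudocount of 0.5 gave −0.14 for Slc2a1/Slc2a3. The cause of these changes was not tested. Gapdh had the fewest reads of the 10 members in every library, at most 81. Of its 50-base stretches 25.1% are shared with other genes, and the part of this in its low count was not tested.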

Other observations

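Counts for branches that leave glycolysis or continue from it stand against the 32.0% of all genes called higher in CPM. Of 8 pentose phosphate genes, 1 was called higher in CPM: Taldo1, transaldolase, averaged 20.5 ± 8.91 CPM for WT (SD, n = 4), against 57.0 ± 8.41 CPM for KO (SD, n = 5), with no overlap (log2 fold change 1.50, limma adjusted p = 0.0148; relative 0.52, adjusted p = 0.583). Among glycogen genes, Pgm1 (limma adjusted p = 0.0345) and the brain-type phosphorylase Pygb (limma adjusted p = 0.0399) were called higher in CPM, beside Pygm and Phka1. Without KO replicate 5 Pgm1 and Pygb were not called (limma adjusted p = 0.104 and 0.0771). Pygb was at 34.7 ± 17.9 CPM for WT and 70.0 ± 13.4 CPM for KO. Of 5 hexosamine genes, Pgm3 and Gfpt1, the entry enzyme of that branch, were called higher (limma adjusted p = 0.0153 and 0.0368), and Gfpt1 was not called without KO replicate 5 (0.0744).

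Of 14 genes for pyruvate entry into mitochondria, 3 were called higher in CPM, a smaller share than the 32.0% of all genes, with a relative median of −0.011. Pdk1, the kinase that holds pyruvate dehydrogenase inactive, was at 10.9 ± 8.19 and 33.7 ± 18.6 CPM (limma adjusted p = 0.0240), Pdpr, a subunit of the phosphatase that reactivates it, at 4.68 ± 2.01 and 21.0 ± 8.23 CPM (0.0151), and Dld at 29.4 ± 22.4 and 69.6 ± 30.5 CPM (0.0245). Without KO replicate 5 Pdk1 and Dld were not called (limma adjusted p = 0.0679 and 0.0677). In the serine and glycerol branches 1 of 7 genes, Psat1, was called higher in CPM (limma adjusted p = 0.0447; 0.0885 without KO replicate 5), with a relative median of −0.18. None of these genes was called on the relative scale.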
